A study of Mus musculus with 116 samples.

Results

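The genes described here encode the protein factors that start and drive translation in the mouse cytosol. They were all gene symbols of the count files that begin with Eif1 to Eif6 or with Eef1 or Eef2, without the Eif2ak kinases and without symbols marked as pseudogenes, which gave 68 of 40202 symbols. The study, nanoSPLITS, divides the lysate of 1 or a few cells between RNA sequencing and protein measurement. RNA libraries were made from 2 untreated mouse cell lines grown by standard culture: C10, labelled as alveolar type II epithelial cells of the lung, and SVEC, labelled as endothelial cells. An input series of C10 held 8 libraries from 1 cell each, 6 from 3 cells and 6 from 10, and a second set comprised 48 cells of either line, each sequenced alone. Nothing in the labels says that libraries of a line came from separate cultures, so p-values measure the spread between these libraries and may miss the spread between cultures.

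Translation of most messages starts when eIF4E binds the cap, the scaffold eIF4G joins it to the helicase eIF4A, and the small ribosomal subunit, loaded with eIF3, eIF1, eIF1A and the initiator tRNA carried by eIF2, scans to a start codon. The exchange factor eIF2B recharges eIF2 with GTP, and eIF5 and eIF5B complete the joining of the large subunit. Elongation then needs eEF1A to bring each aminoacyl-tRNA, the eEF1B complex to recharge eEF1A, eEF2 to move the ribosome along, and eIF5A to help where peptide bonds form slowly. Cells tune these steps through repressors such as 4E-BP1, which captures eIF4E, and eEF2 kinase, which inactivates eEF2.

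Several factors exist as close paralogues, and the reads must be able to tell them apart before their levels can be compared. A stretch of 60 coding bases is shown for each of the pairs whose proportions are described below, because it shows how far apart the copies are. Sequences are those of the transcript with the longest coding part in GENCODE M21 (build GRCm38), found by gene symbol and printed 5′ to 3′ on the coding strand, each inside 1 coding exon. Capitals mark the bases at which the members of a pair differ, 23 in the eIF4A pair and 13 in the eIF2 gamma pair.
Eif4a1 (chr11:69670144-69670203, minus strand): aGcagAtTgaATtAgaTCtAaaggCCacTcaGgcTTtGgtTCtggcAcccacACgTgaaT
Eif4a2 (chr16:23109189-23109248, plus strand): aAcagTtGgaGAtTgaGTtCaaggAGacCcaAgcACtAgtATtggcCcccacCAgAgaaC
Eif2s3x (chrX:94212574-94212633, minus strand): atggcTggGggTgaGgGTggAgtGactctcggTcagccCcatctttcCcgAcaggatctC
Eif2s3y (chrY:1010617-1010676, plus strand): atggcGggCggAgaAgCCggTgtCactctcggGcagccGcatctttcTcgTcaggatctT
Over their whole coding parts Eif4a1 and Eif4a2 were 78.16% identical, with no identical run above 20 bases, and Eif2s3x and Eif2s3y were 86.3% identical, with none above 34 bases. Reads were 150 bases long, so a read in these coding parts spans differences between the copies. Eif3j1 and Eif3j2 are the exception, since all 783 aligned coding bases were identical and the split of reads between them is uncertain.

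Libraries of the input series held 430798 to 15385625 gene counts. The C10 single cells had a median of 1881700 counts and the SVEC single cells a median of 434945, and 2 C10 libraries under 1000 counts were left out, which left 46. The library 1-cell replicate 1 stood apart, with 538 genes detected and 64.6% of its counts on mitochondrially encoded genes. Medians that rest on the 1-cell libraries, and counts of genes called by the main edgeR fit, are given with and without it. Limma, DESeq2 and the other alternative fits were not repeated without it. The endothelial markers checked were close to absent from both lines: 10 of 18 were at 0 in every SVEC single cell, none had counts in at least 50% of the libraries, and their summed level in SVEC had a median of 0 CPM (counts scaled to a library total of 1000000 gene counts; range 0 to 158). The alveolar and epithelial markers were also low in C10 single cells (7 of 16 at 0 in every library, summed median 3.45 CPM). Fibroblast markers had summed medians of 2392 CPM in C10 and 1251 CPM in SVEC single cells. Only 3 of the 8, Dcn, Col1a1 and Col3a1, had counts in at least 50% of the single cells of each line. Of the rest, 2 (Lum and Thy1) were at 0 in every single cell, and Col1a2, Pdgfra and Pdgfrb had medians of 0. The names C10 and SVEC are therefore used as labels of lines.

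The 68 factors took up a similar portion of the counts in all C10 groups and a lower one in SVEC. The share had a median of 1.79% in 1-cell libraries (range 0.000232% to 2.36%), or 1.84% with a lowest value of 1.46% without replicate 1. It had a median of 1.82% in both the 3-cell libraries (1.62% to 2.20%) and the 10-cell libraries (1.58% to 1.94%). C10 single cells had a median of 1.96% (1.34% to 2.53%) and SVEC single cells a median of 1.41% (0.281% to 2.16%), so the lines overlapped. Eef1a1, the gene for the abundant eEF1A1, supplied a median of 13.4% of the factors' counts in C10 single cells and 10.4% in SVEC.

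The number of factors with at least 1 count was higher in libraries of more cells. It had a median of 43.5 in 1-cell libraries (range 1 to 54), or 44 (41 to 54) without replicate 1. The medians were 55.5 in 3-cell libraries (54 to 57) and 58.5 in 10-cell libraries (56 to 60). The 3-cell and 10-cell groups lay above every 1-cell library or level with the highest. Genes detected over all symbols also rose, with medians of 7568 (7870 without replicate 1), 10257.5 and 12986, so the rise was not particular to the factors. C10 single cells showed a median of 50 factors (28 to 57) and SVEC single cells a median of 41 (6 to 52), beside 6103 and 4404 genes over all symbols. With every library drawn down at random to 100000 counts, the medians were 40.5, 50 and 52 over the input series, 47 in C10 single cells (n = 45) and 41 in SVEC (n = 42). Without replicate 1 the drawn-down 1-cell median was 41.

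**Figure D1:**
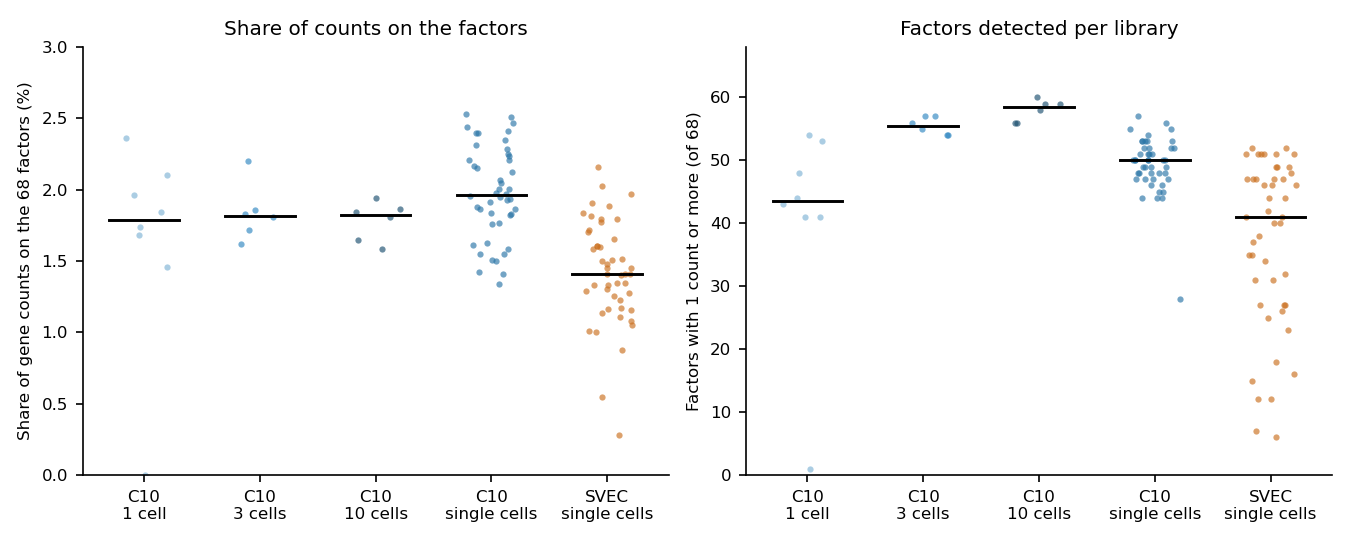
Share of gene counts on the 68 factors (left, percent) and number of factors with 1 count or more (right) in each library of the 5 groups; points are libraries and bars are medians. SVEC libraries reach down to 0.281% and 6 factors, and 1-cell replicate 1 lies near 0 in both plots.

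Not every factor was found. Eef1a2, the eEF1A of muscle and neurons, the methyltransferase gene Eef1akmt4, the noncoding Eif2c5 and the oocyte cap-binding gene Eif4e1b had no count in any of the 114 libraries used, which allows a level of up to 0.00877 CPM (3 counts of 341907676, counting error only). That limit pools all groups, and over the single cells alone it was 0.0302 CPM in C10 and 0.103 CPM in SVEC. The joint symbol Eef1akmt4-ece2, also among the 68, had counts in 4 C10 and 2 SVEC single cells. Reads that fit more than 1 gene were counted apart as ambiguous. The limit for Eef1akmt4 therefore covers only reads assigned to that symbol. Eif5a2, the second eIF5A gene, had 6 counts in 1 library. Eef1akmt3 and Eif2s3y had counts in 7 libraries each and Eif4e3 in 10. In 10-cell libraries 51 of the 68 had counts in every library, while 17 did in all C10 single cells and none in all SVEC single cells. Of all 40202 symbols, 835 had counts in every C10 single cell. These counts depend on the smallest libraries, which held 5122 counts in SVEC and 8313314 in the 10-cell group. At least 90% of SVEC libraries held counts of 5 factors, and of 448 of all genes.

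Per kilobase of transcript, Eef1a1 and Eif1 had the highest levels in both lines, and the order below them differed. In C10 single cells the highest medians were those of Eef1a1 (1622 CPM per kilobase), Eif1 (1254), Eef1g (793) and Eif5a (503), followed by Eif3h (438), Eif2s2 (422) and Eif6 (412), whose libraries overlapped widely. In SVEC single cells Eef1a1 (899) and Eif1 (704) were followed by 3 genes of eIF3, the scaffold that holds the small subunit: Eif3h (558), Eif3e (411) and Eif3g (291). The 10-cell libraries began with Eef1a1 (1760), Eif1 (1401), Eif5a (900) and Eef1g (577). Lengths are those of 1 transcript per gene, so the order within close neighbours depends on that choice.

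The first comparison asks which factors differ between C10 and SVEC single cells. Of the 68 factors, 55 had counts in at least 25% of the libraries of 1 line or more and were tested in 1 fit with all other genes that passed the same filter. By edgeR's quasi-likelihood test, 13 of the 55 were higher in C10 and none lower at an adjusted p under 0.05, where 14.4% of all 9303 genes tested were higher and 4.48% lower. Those 13 included every tested factor of the elongation cycle itself, that is Eef1a1, Eef1b2, Eef1d, Eef1g and Eef2, while the other 8 were Eif1, Eif2s2, Eif3c, Eif3f, Eif4ebp1, Eif5a, Eif6 and Eef2k. Eef2k entered the test only through its detection in C10, so its call is not used as support, whereas the other 12 had counts in over 25% of the libraries of either line. Eef1d and Eef2 did not pass with library totals (edgeR, adjusted p = 0.0523 and 0.0804) or with each library's detection rate in the model (edgeR, adjusted p = 0.102 and 0.262). Eif2s2 and Eef2k did not pass under either of these, and Eif1, Eif3c and Eif6 did not pass with the detection rate. The median log2 fold change (C10 minus SVEC) was 0.67 over the 55 factors, with 45 above 0, and 0.35 over all genes tested, with 63.7% above 0.

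Scaling and test moved these counts. With library totals in place of TMM factors the median over all genes fell to 0.014 and that of the factors to 0.38, 9 factors were higher and 1 (Eif4a2) lower, and 10.0% of all genes were higher and 7.05% lower. The limma test on log2(CPM + 1) called 34 of the 55 higher and none lower, with 31.1% of all genes higher. Of the 13 factors above, 12 also passed with limma, the exception being Eef2k. C10 libraries were deeper, held more genes (medians 6103 and 4404 genes) and had more of their counts on mitochondrially encoded genes (7.14% and 4.30%), and 3 alternatives bear on depth and on genes detected. With libraries drawn down to 100000 counts, 12 factors were higher and 1, again Eif4a2, lower, where 11.6% of 7220 genes were higher and 6.41% lower. With each library's detection rate in the model, 6 factors were higher and 1 lower, where 8.17% of all genes were higher and 6.86% lower. In libraries of at least 100000 counts 15 factors were higher and none lower, where 17.4% of all genes were higher and 3.66% lower. The part of the mitochondrial share was not tested.

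**Figure D2:**
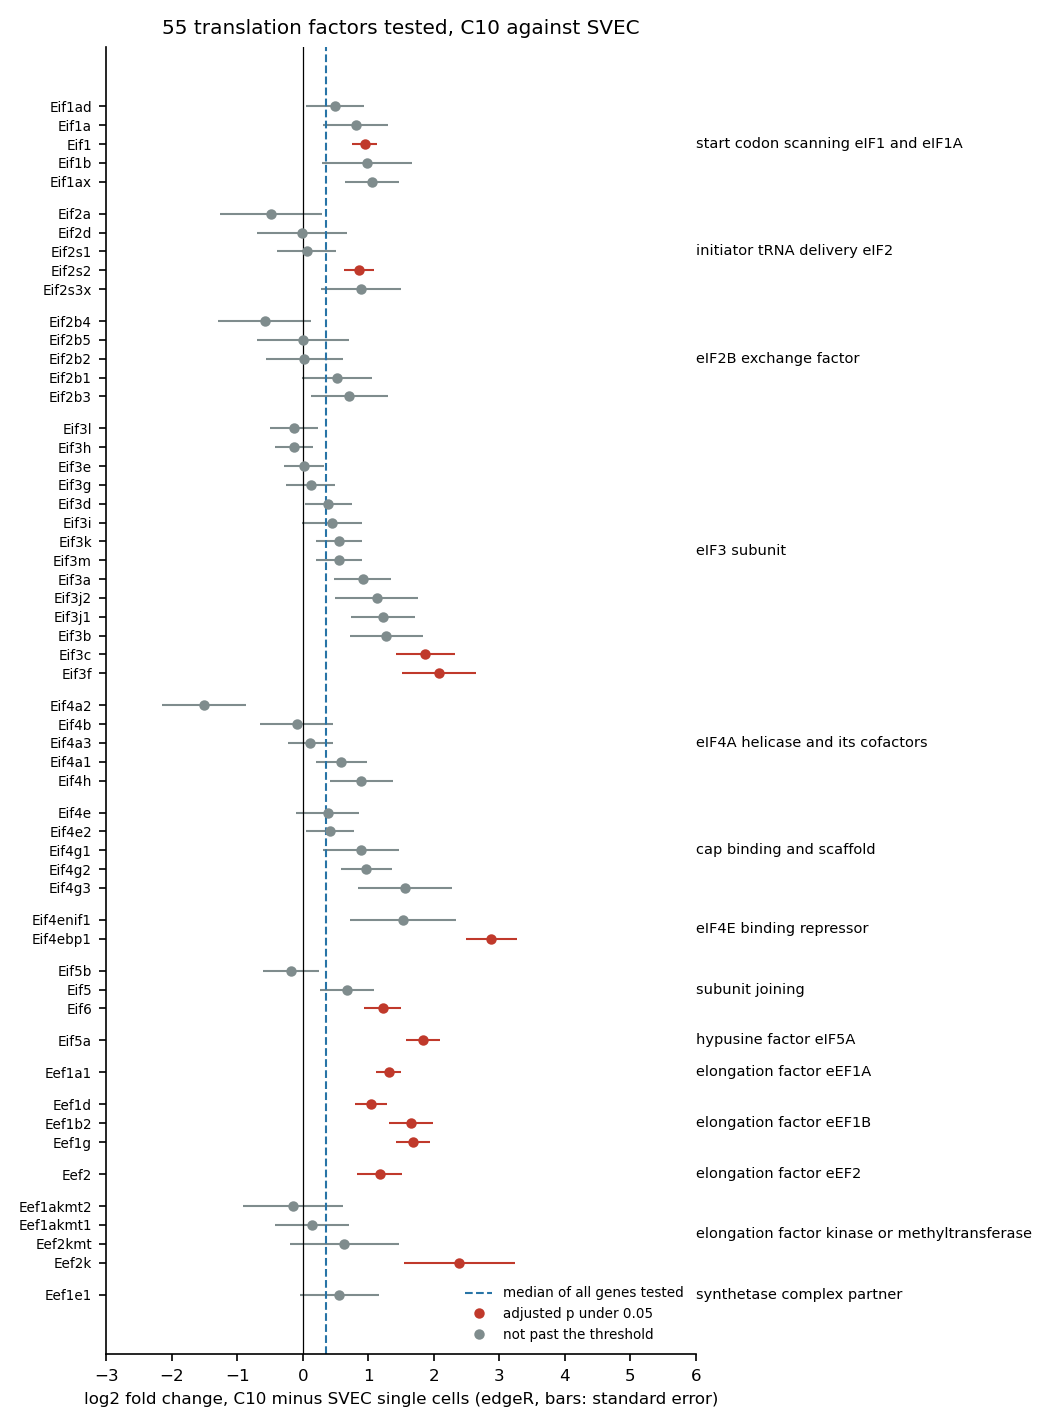
Log2 fold change between C10 and SVEC single cells for the 55 factors tested, grouped by role; points are edgeR estimates, bars standard errors, red marks an adjusted p under 0.05, and the dashed line is the median of all genes tested (0.35). All red points lie right of that line, from 0.85 for Eif2s2 to 2.88 for Eif4ebp1, and Eef2k among them entered the test only through C10.

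Among the elongation factors, Eef1a1 had 1182 to 4983 CPM in C10 (lowest and highest library, median 2910) and 0 to 2676 CPM in SVEC (median 1612). No SVEC library reached the C10 median, and 27 of 46 C10 libraries lay above the highest SVEC library. The log2 fold change was 1.31 ± 0.19 (SE; edgeR, adjusted p = 3.54e-08; limma, adjusted p = 0.000455). Eef1g, the gamma subunit of eEF1B, had 453 to 2453 CPM in C10 (median 1477) against 0 to 1818 CPM in SVEC (median 465.8), and 2 SVEC libraries passed the C10 median. Its log2 fold change was 1.68 ± 0.26 (SE; edgeR, adjusted p = 1.24e-07; limma, adjusted p = 1.40e-05).

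The exchange subunits of eEF1B differed in the same direction. Eef1b2 (the alpha chain, which frees GDP from eEF1A) had a median of 547 CPM in C10 (64.4 to 1497) and 171 CPM in SVEC (0 to 1330), with 6 SVEC libraries above the C10 median, and Eef1d (the delta chain) had medians of 555 CPM (180 to 1196) and 313 CPM (0 to 1235), with 7. The lines overlapped in both genes. The log2 fold changes were 1.65 ± 0.34 (SE) for Eef1b2 (edgeR, adjusted p = 7.49e-05; limma, adjusted p = 4.80e-06) and 1.04 ± 0.25 (SE) for Eef1d (edgeR, adjusted p = 0.000817; limma, adjusted p = 0.00206).

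Eef2, the translocase, had a median of 500 CPM in C10 (84.1 to 1176) and 216 CPM in SVEC (0 to 947), where 8 libraries had no count. Its log2 fold change was 1.17 ± 0.34 (SE; edgeR, adjusted p = 0.00748; limma, adjusted p = 0.000114). The gene of its kinase, Eef2k, was found in 12 of 46 C10 and 6 of 48 SVEC libraries, and its median was 0 in both. Its detection in C10 alone (26.1% of libraries, against 12.5% in SVEC) brought Eef2k past the filter, so its fitted difference of 2.39 ± 0.85 (SE) is given as a description. It was called in 2 of 7 alternatives and did not pass with limma (adjusted p = 0.120). Reads in Eef1a1 and Eef1g are the least certain of this group, because copies elsewhere in the genome, the closest of them processed pseudogenes, match 87.7% and 72.0% of the transcript at 95% identity or more, against 43.5% for Eef2, 14.3% for Eef1b2 and none for Eef1d and Eef2k. Among the initiation genes that passed, the portion was 49.8% for Eif1, 39.0% for Eif2s2, 32.2% for Eif5a and 5.16% for Eif4ebp1, with none for Eif3c, Eif3f and Eif6.

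Of the genes that act around the start codon, Eif1 (the guard of start codon choice) had a median of 1657 CPM in C10 (372 to 2716) and 931 CPM in SVEC (0 to 3143). The ranges overlapped and 10 SVEC libraries passed the C10 median. Eif1 differed by 0.94 ± 0.19 on the log2 scale (SE; edgeR, adjusted p = 7.21e-05; limma, adjusted p = 0.00269). The genes of its partner eIF1A did not pass with edgeR: Eif1a differed by 0.80 ± 0.49 (SE; edgeR, adjusted p = 0.284) and Eif1ax by 1.06 ± 0.41 (SE; edgeR, adjusted p = 0.0574), and limma called both higher in C10.

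In the eIF2 complex, 1 subunit gene passed with edgeR. Eif2s2 (the beta subunit) had medians of 1073 CPM in C10 (407 to 2814) and 716 CPM in SVEC (0 to 3383), and differed by 0.85 ± 0.23 on the log2 scale (SE; edgeR, adjusted p = 0.00355; limma, adjusted p = 0.0127). Eif2s1 (alpha, the subunit that stress kinases phosphorylate) differed by 0.06 ± 0.45 (SE; edgeR, adjusted p = 0.957) and Eif2s3x (gamma) by 0.88 ± 0.61 (SE; edgeR, adjusted p = 0.358). None of the 5 eIF2B genes passed with edgeR, and Eif2b5, the catalytic subunit, differed by -0.00057 ± 0.70 (SE; edgeR, adjusted p = 1.00). Limma called Eif2s3x, Eif2b1 and Eif2b3 higher in C10 as well.

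Of 14 eIF3 genes, 2 passed, both higher in C10, where 14.4% of all genes tested were higher, and the median difference of the 14 was 0.55 on the log2 scale. Eif3c, a core scaffold subunit, had a median of 240 CPM in C10 (1.04 to 911) and 31.4 CPM in SVEC (0 to 715), where 16 libraries had no count, and differed by 1.87 ± 0.46 (SE; edgeR, adjusted p = 0.00096; limma, adjusted p = 8.50e-08). Eif3f had counts in 45 of 46 C10 libraries (median 34.6 CPM, 0 to 161) and in 22 of 48 SVEC libraries (median 0, highest 109 CPM), and differed by 2.08 ± 0.56 (SE; edgeR, adjusted p = 0.00355; limma, adjusted p = 9.25e-09). Eif3a, the largest subunit, differed by 0.91 ± 0.44 (SE; edgeR, adjusted p = 0.142) and Eif3e by 0.02 ± 0.31 (SE; edgeR, adjusted p = 0.979). Limma called 8 of the 14 higher in C10 (31.1% of all genes), Eif3a among them and Eif3e not. Eif3h and Eif3l had log2 differences below 0, of -0.14 each, and did not pass the test.

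Eif4ebp1, the gene of the cap repressor 4E-BP1, showed the largest fold change of the 55 factors tested. It had 197 to 2319 CPM in C10 (median 697) and 0 to 1074 CPM in SVEC (median 67.5), where 11 libraries had no count. No C10 library lay under the SVEC median, 34 of 48 SVEC libraries lay under the lowest C10 library, and 3 SVEC libraries passed the C10 median. The log2 fold change was 2.88 ± 0.39 (SE; edgeR, adjusted p = 4.25e-09; limma, adjusted p = 1.15e-11), a 7.35-fold difference. Its target Eif4e differed by 0.38 ± 0.49 (SE; edgeR, adjusted p = 0.677), though limma called it, and Eif4ebp2 had counts in 9 of 46 C10 and 5 of 48 SVEC libraries, which the 25% filter left out. A fit without the filter gave Eif4ebp2 a difference of 4.43 ± 0.98 (SE; edgeR, adjusted p = 0.000109), with 18.5% of 18001 genes higher and 11.7% lower. Its median was 0 in both lines, and 6 C10 libraries lay above the highest SVEC library. The difference is therefore given as a description and not used as support. That fit called 17 factors higher and 3 lower, and among those the filtered fit did not call were also Eef1akmt3, Eif2s3y and Eif4e3.

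The scaffolds of the cap complex did not pass with edgeR. Eif4g1 differed by 0.89 ± 0.58 (SE; edgeR, adjusted p = 0.326) and Eif4g2, whose product lacks the eIF4E site, by 0.97 ± 0.39 (SE; edgeR, adjusted p = 0.073). The median of Eif4g2 was 565 CPM in C10 and 188 CPM in SVEC. Limma called both higher in C10. The helicase cofactor gene Eif4b differed by -0.10 ± 0.56 (SE; edgeR, adjusted p = 0.938).

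Late in initiation, Eif6, which keeps the large subunit from joining early, had a median of 619 CPM in C10 (182 to 1710) and 335 CPM in SVEC (0 to 1505), with 6 SVEC libraries above the C10 median. Its log2 fold change was 1.22 ± 0.28 (SE; edgeR, adjusted p = 0.000507; limma, adjusted p = 0.0004). Eif5a, the factor that carries hypusine, had medians of 722 CPM (214 to 1406) and 233 CPM (0 to 741), and 22 of 46 C10 libraries lay above the highest SVEC library. Eif5a differed by 1.83 ± 0.26 (SE; edgeR, adjusted p = 1.26e-08; limma, adjusted p = 1.57e-06). The joining factors Eif5 (0.67 ± 0.41, SE; edgeR, adjusted p = 0.286) and Eif5b (-0.18 ± 0.43, SE; edgeR, adjusted p = 0.841) did not pass with edgeR, and limma called Eif5 higher in C10.

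**Figure D3:**
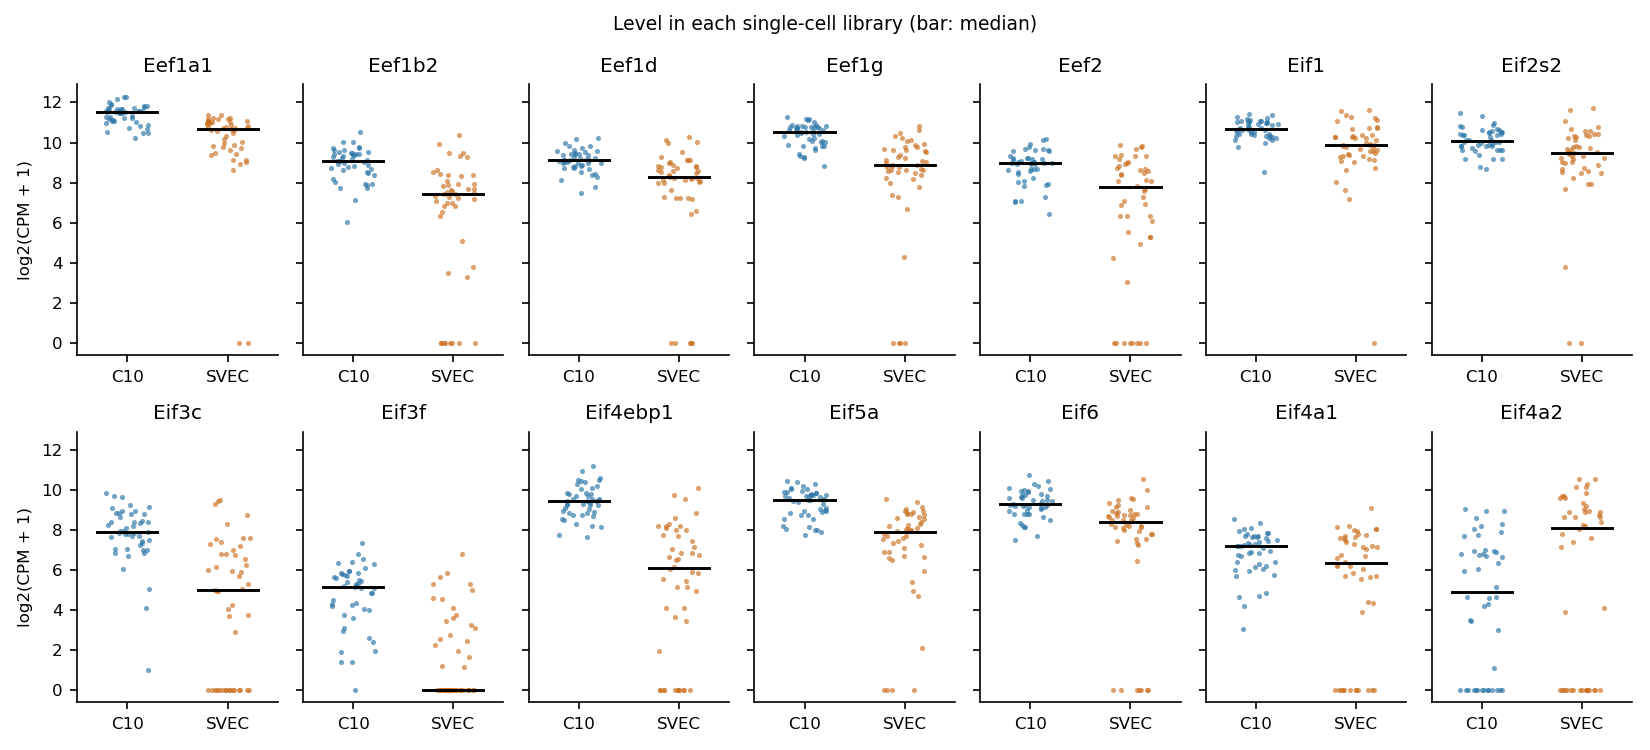
Level of 14 factors in each single-cell library as log2(CPM + 1), C10 (46 libraries) beside SVEC (48 libraries); points are libraries and bars are medians. Most SVEC panels carry libraries at 0, and in the last panel, Eif4a2, the SVEC median lies above that of C10.

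Proportions of paralogues within a library do not depend on how libraries are scaled, so 10 were compared between the lines by a two-sided permutation test with 100000 resamples. Only Eif4a2 within Eif4a1 plus Eif4a2, the alternative forms of the eIF4A helicase, passed adjustment over the 10. In libraries with at least 20 counts over the pair, Eif4a2 made up 0% to 97.2% in C10 (median 27.3%, n = 42) and 0% to 100% in SVEC (median 79.0%, n = 34), and it was above 50% in 14 of 42 C10 and 24 of 34 SVEC libraries. The mean share was 33.9% ± 32.3 (SD) in C10 and 62.1% ± 36.1 (SD) in SVEC, a difference of -28.2 ± 7.94 percentage points (SE; permutation test, p = 0.00086, adjusted p = 0.0086). With at least 100 counts over the pair the difference was -33.7 percentage points (permutation test, adjusted p = 0.00081).

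Both genes varied strongly between cells of a line. Eif4a1 had medians of 145 CPM in C10 (7.43 to 374) and 79.4 CPM in SVEC (0 to 541), and Eif4a2 had medians of 29.0 CPM in C10 (0 to 532) and 274 CPM in SVEC (0 to 1488). Neither passed alone with edgeR: Eif4a1 differed by 0.59 ± 0.39 (SE; adjusted p = 0.333) and Eif4a2 by -1.51 ± 0.64 (SE; adjusted p = 0.0908). Eif4a2 did pass with library totals (-1.84, edgeR, adjusted p = 0.0307) and in drawn-down libraries (-1.93, edgeR, adjusted p = 0.00595), while limma called Eif4a1 and not Eif4a2 (adjusted p = 0.00513 and 0.225). Exons of Eif4a2 overlap the small nucleolar RNA genes Snord2 and Snora81 on the same strand and Rfc4 on the other, and 68.8% of the Eif4a1 transcript has copies of 95% identity or more, so counts of either gene can be moved by how such reads were assigned.

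In the input series the Eif4a2 share had lower medians than in SVEC and a narrower range with more cells. It had a median of 0.0277% in 7 libraries of 1 cell (0% to 62.1%), 15.0% in 3-cell libraries (0% to 39.3%) and 27.4% in 10-cell libraries (10.9% to 46.0%). These libraries are a separate series and were not tested against SVEC.

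**Figure D4:**
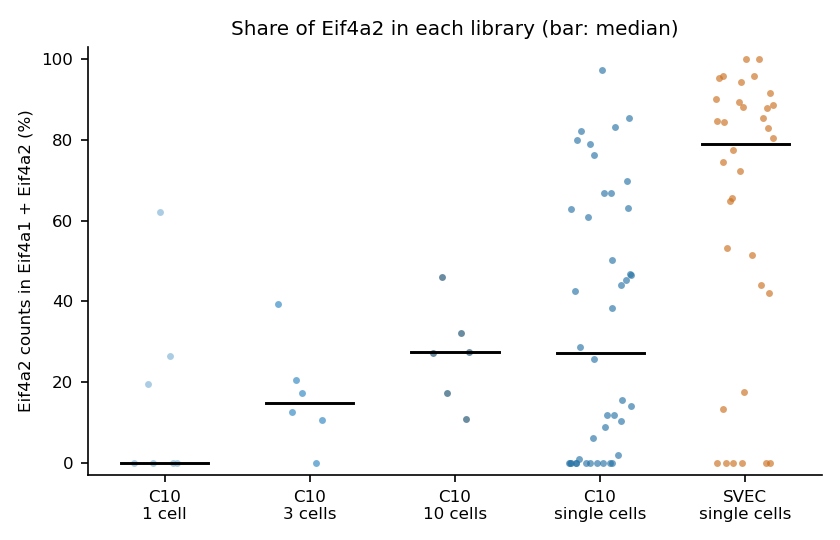
Percent of Eif4a1 plus Eif4a2 counts that fall on Eif4a2 in each library with 20 or more counts over the pair, by group; points are libraries and bars are medians. C10 groups have medians of 27.4% or lower, while SVEC single cells have a median of 79.0% with 6 libraries at 0%.

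Of the other proportions, Eef1a2 and Eif5a2 were at 0 in all single cells and so could not differ. The share of Eif2s3y, the Y-linked copy of the eIF2 gamma gene, was 0.0239% ± 0.139 (SD, n = 34) in C10 and 19.1% ± 37.3 (SD, n = 18) in SVEC (permutation test, adjusted p = 0.0562), and all of its SVEC counts came from 4 libraries. In those 4 the level was 201 to 238 CPM (75 to 321 counts), against single counts in 3 C10 libraries of all groups. The share of Eif4ebp1 among the 4E-BP genes was 97.2% ± 8.14 (SD, n = 46) and 86.8% ± 29.7 (SD, n = 29; permutation test, adjusted p = 0.0595). In libraries of at least 100000 counts both shares had an adjusted p of 0.0496 in the permutation test. For Eif2s3y the libraries and the unadjusted p were the same as before, and only the adjustment over the shares moved. The remaining 5 shares, of Eif1b, Eif1ax, Eif4e2, Eif4g2 and Eif3j2, differed by -4.52 to 5.33 percentage points (permutation test, adjusted p 0.736 or higher).

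How far single cells of a line differ can be read from genes detected in every cell. Of 835 genes with counts in all 46 C10 single cells, 17 were factors, and the coefficient of variation (SD over mean of CPM) had a median of 0.483 over the factors and 0.513 over all 835. Eif1 was among the steadiest (0.289, place 13 of 835), followed by Eef1a1 (0.317, place 37), Eef1g (0.353, place 80) and Eef1d (0.374, place 120). Eif5 (0.789), Eif3c (0.694) and Eif3a (0.680) varied most of the 17. In SVEC, Eef1a1 was again steady (0.485, place 16 of 448 genes found in at least 90% of libraries), while Eif1 (0.652) was at place 151.

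Levels of the factors were only loosely tied to each other from cell to cell. Over the 136 pairs of those 17 genes, Spearman's rho of CPM had a median of 0.096 in C10 (46 libraries) and 0.123 in SVEC (48 libraries). The highest in C10 was 0.537 between Eef1a1 and Eef2, a pair at 0.386 in SVEC, and the lowest was -0.341 between Eif3a and Eif4ebp1. Values of a library share its depth and total, so these figures describe the libraries and carry no test.

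The input series asks how the measured levels change with the number of cells. The comparisons of 10 cells and of 3 cells with 1 cell share the same 1-cell libraries. Of 59 factors tested among 13645 genes, 3 were higher with 10 cells than with 1 cell by edgeR (10.6% of all genes tested were higher) and none was lower. With 3 cells against 1 cell, 1 factor was higher, where 6.07% of all genes were higher, and with 10 cells against 3 cells no factor and no gene passed (0.0% of 13645). In that last comparison no factor had an unadjusted p under 0.05 in edgeR, limma or DESeq2, while 1346 genes did in edgeR, and limma called 0.257% of all genes and none of the factors.

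The 3 were genes of low level that no 1-cell library showed, and they entered the test only through the 10-cell libraries, so their calls are not used as support. Eif4ebp2, a brain-enriched relative of 4E-BP1, had counts in all 6 libraries of 10 cells, at 0.120, 0.589, 0.790, 1.29, 17.4 and 18.3 CPM, in 2 of 6 libraries of 3 cells, and in none of 8 of 1 cell. Eef1aknmt (a methyltransferase of eEF1A) had 0.744, 20.0, 22.6 and 26.4 CPM in 4 libraries of 10 cells and 17.3 CPM in 1 of 3 cells. Eef1akmt3 (another methyltransferase of eEF1A) had counts in 3 libraries of 10 cells, the highest at 3.49 CPM, and in 2 of 3 cells.

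The pooled 10-cell levels were 172 times a floor of 3 counts over all 1-cell libraries (0.0378 CPM) for Eif4ebp2. They were 270 times it for Eef1aknmt and 28.0 times it for Eef1akmt3. The floor covers counting error only and sets no lower bound on a fold change. Of the C10 cells sequenced alone, 9 of 46 had counts of Eif4ebp2 (highest 300 CPM) and 8 of 46 of Eef1aknmt (highest 104 CPM), and none of Eef1akmt3. Eif4ebp2 was also the factor called with 3 cells against 1 cell. Tested by edgeR without a filter, no factor passed with 10 or 3 cells. An unadjusted p under 0.05 was found for 7 and 5 of 64 factors, beside 4573 and 3920 of all 19431 genes. Without 1-cell replicate 1, none of the 59 passed with 10 cells (2.45% of all genes were higher) or with 3 cells (0.235%). There 8 and 5 of the 59 had an unadjusted p under 0.05, beside 2534 and 2363 of all 13643 genes. Without 1-cell replicate 6, 5 factors passed with 10 cells (12.5% of all genes were higher) and 3 with 3 cells (6.85%), and the single call with 3 cells was also lost without 1-cell replicate 2, 5, 9, 13 or 14 or 3-cell replicate 1. With 3 cells, 3 factors passed without 1-cell replicate 10 (14.2% of all genes were higher), and 2 without 10-cell replicate 5 (7.13%) or 6 (6.95%). Limma called none of these 3, but called Eif3a and Eif4b higher with 10 cells (adjusted p = 0.0456 and 0.0345; 10.4% of all genes higher). That limma fit held 1-cell replicate 1, and all 59 factors had differences above 0 in it. Their median was 1.81, beside 1.45 over all genes. Whether the 2 limma calls rest on replicate 1 was not tested.

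The abundant factors did not pass, and their 10-cell levels lay inside the range of the 1-cell libraries. Eef1a1 had 0, 2046, 2796, 3567, 3875, 4212, 4519 and 4543 CPM in the 8 libraries of 1 cell, the value of 0 being replicate 1, and 2262 to 3746 CPM with 10 cells. The log2 difference (10 cells minus 1 cell) was -0.48 ± 0.75 (SE; edgeR, adjusted p = 0.980), or -0.67 ± 0.26 (SE; edgeR, adjusted p = 0.127) without replicate 1. Eif5a differed by -0.45 ± 0.76 (SE; edgeR, adjusted p = 0.985) and by -0.65 ± 0.26 (SE; edgeR, adjusted p = 0.148) without it, from 0 to 2124 CPM with 1 cell and 986 to 1683 CPM with 10 cells. Over the 59 factors the median difference was -0.03 with 10 cells and 0.12 with 3 cells, beside 0.36 and 0.12 over all genes. Without replicate 1 these medians were -0.23 and -0.07 over the factors, beside 0.20 and 0 over all genes.

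The levels of the factors were more even between libraries of more cells. Over 48 factors with a mean of at least 50 CPM, leaving out 1-cell replicate 1, the coefficient of variation between libraries had a median of 0.870 with 1 cell, 0.533 with 3 cells and 0.322 with 10 cells. It was lower with 10 cells than with 1 cell in 48 of 48 factors and in 98.5% of all 3330 such genes, whose medians were 1.07, 0.585 and 0.380. Eif3a, for instance, went from 0 to 738 CPM over the 1-cell libraries to 201 to 501 CPM over the 10-cell libraries (coefficients of variation 1.59 and 0.310). Eef1a1 had 0.256 and 0.185.

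**Figure D5:**
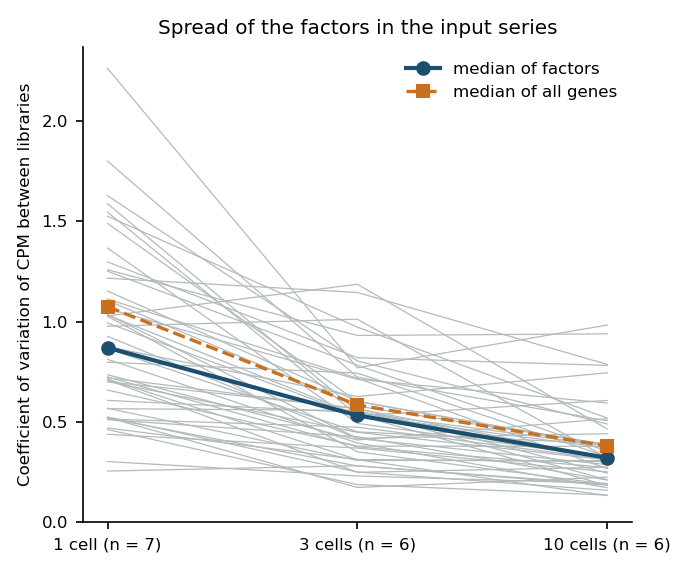
Coefficient of variation of CPM between libraries for 48 factors (grey lines), their median (blue) and the median of 3330 genes (orange, dashed), by cells per library, without 1-cell replicate 1. The median of the factors goes from 0.870 to 0.322 and runs below that of all genes at each step.

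Other genes of the translation pathway were counted from lists by role, over the same fit of C10 against SVEC. Of 22 cytosolic aminoacyl-tRNA synthetase and partner genes, 3 were higher in C10 and none lower, where 14.4% of all genes tested were higher: Gars (2.73 ± 0.55, SE; edgeR, adjusted p = 5.02e-05), Rars (1.51 ± 0.50, SE; edgeR, adjusted p = 0.0194) and Sars (1.14 ± 0.38, SE; edgeR, adjusted p = 0.0245). Limma called 13 of the 22 higher (31.1% of all genes). Among 5 poly(A)-binding genes, Pabpc1 was higher in C10 (1.59 ± 0.29, SE; edgeR, adjusted p = 5.44e-06) and its partner Paip1 lower (-2.33 ± 0.73, SE; edgeR, adjusted p = 0.013). Of all genes tested, 4.48% were lower.

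Of 7 mTORC1 and S6 kinase related genes tested, Pdcd4, whose product binds eIF4A, was lower in C10 (-2.94 ± 0.88, SE; edgeR, adjusted p = 0.00905; 4.48% of all genes were lower), and none was higher. Limma called neither Paip1 nor Pdcd4 lower. No gene passed with edgeR among 4 of termination and recycling, 6 initiation helpers, 6 eIF2 kinase and phosphatase genes and 7 that modify eEF2 and eIF5A. Limma called 3 of the 4, 3 of the 6 helpers and 1 of the 7 modifiers higher in C10, and 1 of the 6 kinase and phosphatase genes lower. Over all 9303 genes limma called 31.1% higher and 328 genes lower. With 10 cells against 1 cell, 1 gene was higher in each of the poly(A), helper, eIF2 kinase, modification and mTORC1 lists (10.6% of all genes were higher), none in the other two, and none was lower. Without 1-cell replicate 1, where 2.45% of all genes were higher, 1 gene of these lists passed, the poly(A) list's Paip1.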

How the data were processed

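RNA was measured in 116 libraries as full-length cDNA (SMART-Seq v4 Plus, single reads of 150 bases, per the labels' protocols). The authors deposited whole-number read counts per gene symbol, 1 table per library, with 5 closing counters of unassigned reads. FastQC, STAR and HTSeq are named in the submitters' processing notes, and the build, annotation and strand setting are not given in the sources used here. The counter of reads with several alignments is 0 in every table, so reads shared by gene copies cannot be traced.

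The factors, role groups and gene lists were chosen with earlier results of these data known. Counts scaled to 1000000 gene counts per library (CPM) were used for description. Genes were tested on the counts with edgeR 4.0.16 (quasi-likelihood, TMM factors, R 4.3.3), over genes found in at least 25% of single-cell libraries of a line, or 50% of an input group, with Benjamini-Hochberg adjustment over all genes tested and a threshold of 0.05. The standard error of a fold change was derived from its F value. limma 3.58.1 on log2(CPM + 1), DESeq2 1.42.0 and the other settings of the closing section were alternatives, and the tests were tested on simulated data. Genes named were those past the threshold, at most 12 per direction by adjusted p, and 30 named for their role. Input libraries held 430798 counts or more, and intervals and floors cover counting error only, since no molecular identifiers are described.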

Additional observations from a re-analysis of the deposited data

Results flagged for a closer look

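In 36 groups of 6 to 8 input libraries, 4 values stood apart from the rest of their group by Dixon's criterion at the 95% level. For normally distributed values chance gives about 1 in 20. The library 1-cell replicate 1 had 0.000232% of its counts on the factors, against 1.46% to 2.36% in the other 7 libraries of 1 cell, and 1 factor detected against 41 to 54. In the 3-cell group, replicate 1 had 17.7 CPM of Eif4ebp2, where the other 5 had 0 to 0.642 CPM. Also in that group, replicate 6 had 17.3 CPM of Eef1aknmt, where the other 5 had none. A gene seen in 1 library of a group meets the criterion at any level. Both genes were sparse in the 3-cell group, so the rate of 1 in 20 does not apply to them. The high 10-cell libraries for these last 2 genes lay near the same level (17.4 and 18.3 CPM for Eif4ebp2, 20.0 to 26.4 CPM for Eef1aknmt).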

How the results depend on the processing

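Between C10 and SVEC the 13 factors called by edgeR kept their direction under the 9 alternatives (7 for Eef2k), and Eef1a1, Eef1b2, Eef1g, Eif3f, Eif4ebp1 and Eif5a passed under all 9. Adding each library's detection rate to the model left 7 calls (6 higher, 1 lower; 8.17% and 6.86% of all genes), limma gave 34 (31.1% of all genes higher), and testing without a filter gave 20 (17 higher, 3 lower; 18.5% and 11.7%). The number of factors called with 10 cells against 1 cell, 3 as reported, was 0 with the detection rate or without a filter and 1 with a 90% filter. It ranged from 0 to 5 when each library was left out in turn. With 3 cells against 1 cell, 1 as reported, it was 0 with the detection rate, limma or no filter, 2 with DESeq2, and 0 to 3 when each library was left out. With 10 cells against 3 cells it was 0 throughout.

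Over all genes that passed the filter, deviations of libraries that share a replicate number had a mean r of 0.00336 over 46 pairs of C10 and SVEC. It was -0.00334, 0.0218 and 0.0163 over 6 pairs in each input comparison. At most 3 of the 6 libraries of a group correlated best with their own number. Replicate 1 still had the fewest counts and the highest mitochondrial share of the 1-cell, 3-cell and 10-cell groups (64.6%, 16.7% and 17.8%). Its Eef1a1 level was also the lowest of each group (0, 1581 and 2262 CPM). The cause was not tested. With a replicate block, 24 factors were higher in C10 (30.1% of all genes higher, 3.2% lower), and 0 with 10 or 3 cells against 1 cell. A fit of those same libraries without the block, chosen after seeing the data, also called 0 in both.

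Of the paralogue shares, the Eif4ebp1 difference (11.0 percentage points, permutation test, adjusted p = 0.0496) also passed in libraries of at least 100000 counts. The Eif2s3y difference (-19.1, permutation test, adjusted p = 0.0496) passed there through the adjustment alone. Its libraries (34 and 18), difference and unadjusted p (permutation test, 0.0112) were the same as in the main setting. With 100 counts as the minimum, 3 differences that did not pass changed sign, to 1.56 for Eif1ax, 0.157 for Eif4e2 and -2.48 for Eif4g2. The Eif4a1 difference was -0.22 with the detection rate as a covariate (edgeR, adjusted p = 0.838). The cause of the changes other than that of Eif2s3y was not tested. SVEC libraries are shallow, so a factor without counts there may lie below detection.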

Other observations

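Eif2s3y was set beside 3 other Y-linked genes, chosen after its values were seen. Ddx3y had more than 3 counts in 39 of 46 C10 single cells and in 16 of 48 SVEC single cells, including the 4 with Eif2s3y. Uty had more than 3 counts in 3 C10 and 4 SVEC single cells, and Kdm5d in none of the C10 and 1 of the SVEC single cells. C10 libraries thus carried reads of Ddx3y and Uty while Eif2s3y never exceeded 1 count in any of them. The cutoff is in raw counts, and the SVEC libraries are shallower. The highest counts in a C10 single cell were 49 for Ddx3y and 5 for Uty, against 226 and 344 in an SVEC single cell. Among the 10-cell libraries the highest were 54 and 29.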
